A study of Mus musculus with 6 samples.

Results

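The genes described here encode the activation and oxidation of fatty acids: uptake and acyl-CoA synthesis, the carnitine shuttle, the mitochondrial and peroxisomal enzymes, the electron carriers and several regulators. They are 33 named genes of 31791 gene names on the array, each read by the brightest of its probes. All 33 were on the array, with 42 probes of 60 bases, and 31 passed the filter for testing, which asked that either tissue show a signal well above background on each of its 3 arrays. The RNA came from myeloid cells sorted as CD45 high and CD11b high from the infarcted left ventricle (heart) or the spleen of wild-type C57BL/6N mice, 3 days after acute myocardial infarction. The sort kept cells low for antigens of B, T and natural killer cells and for the neutrophil antigen Ly6G. Each tissue had 3 arrays, of organs analysed individually and numbered 1, 2 and 4, and no group without infarction was analysed here. All mice carried the infarction, the labels give neither age nor sex of the mice, and they do not say whether a heart and a spleen of the same number came from 1 animal.

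Fatty acids enter a cell through transport proteins and are joined to coenzyme A by acyl-CoA synthetases. Long chains cross the inner mitochondrial membrane as carnitine esters, made by Cpt1 enzymes, carried by the translocase Slc25a20 and turned back into acyl-CoA by Cpt2. A repeating cycle of dehydrogenase, hydratase, second dehydrogenase and thiolase then shortens the chain, and electron transfer flavoprotein passes electrons from the first dehydrogenase to the respiratory chain. Peroxisomes shorten very long and branched chains before handing them on. Nuclear receptors of the PPAR family, with the coactivators of the PGC-1 family, are known regulators of these genes. Heart muscle cells depend heavily on this pathway, and macrophages also use it, with a reliance that varies with their activation.

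Slc25a20, Acsl4 and Crot were the members whose RNA differed between the tissues by the test used here. Their 250 bases before the gene start are shown 5′ to 3′ because the results turn on these genes, with sequences and coordinates from RefSeq's GRCm38.p6. The stretches lie at chr9:108661886-108662135 on the plus strand for Slc25a20, chrX:142390536-142390785 on the minus strand for Acsl4 and chr5:8997147-8997396 on the minus strand for Crot.
Slc25a20: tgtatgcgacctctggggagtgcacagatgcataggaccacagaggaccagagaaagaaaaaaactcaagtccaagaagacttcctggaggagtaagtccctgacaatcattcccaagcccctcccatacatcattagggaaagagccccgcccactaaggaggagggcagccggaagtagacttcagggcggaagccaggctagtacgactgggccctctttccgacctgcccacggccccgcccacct
Acsl4: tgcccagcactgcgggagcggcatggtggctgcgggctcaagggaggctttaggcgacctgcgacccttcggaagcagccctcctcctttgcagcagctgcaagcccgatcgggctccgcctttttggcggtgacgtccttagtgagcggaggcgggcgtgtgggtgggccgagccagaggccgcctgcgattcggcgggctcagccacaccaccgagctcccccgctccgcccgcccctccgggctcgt
Crot: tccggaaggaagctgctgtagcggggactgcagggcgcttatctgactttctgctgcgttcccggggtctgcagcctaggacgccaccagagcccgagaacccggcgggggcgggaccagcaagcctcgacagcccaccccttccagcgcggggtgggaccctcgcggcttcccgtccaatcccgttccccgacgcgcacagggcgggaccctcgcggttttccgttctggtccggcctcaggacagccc
The GC content of these stretches was 56.8% for Slc25a20, 70.8% for Acsl4 and 69.6% for Crot. The median over the same 250 bases was 52.4% for the 32851 RefSeq promoters and 59.6% for the 31 promoters of the members. For the motif search below, each promoter was read from 250 bases before to 50 bases after the gene start.

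Of the 33 members, 28 matched a promoter in the RefSeq table, with 31 promoters between them. The PPAR direct repeat, which is AGGTCA, any 1 base and AGGTCA again, was searched on both strands and was in none of the members' promoters and in 13 of all 32851 (0.0396%). The estrogen-related receptor element TCAAGGTCA was in none of the members' promoters and in 139 of all (0.423%). The half-site AGGTCA, which is contained in both longer motifs and was searched after they gave no match, was in 4 of the 31 promoters of the members (12.9%), each of a different gene, and in 16.3% of all promoters. A match describes the letters in this window only. The 30 bases around each half-site match are shown to place the 4 matches, read 5′ to 3′ on the strand of the gene, with the match in capitals, and TGACCT is the half-site read from the opposite strand.
Acadm: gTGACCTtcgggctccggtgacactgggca
Acadvl: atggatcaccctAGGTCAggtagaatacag
Cpt1a: cagtttccttacTGACCTcctccccgcagc
Echs1: accagcccgctcAGGTCAcgggtccacccc
The windows lie at chr3:153944864-153944893 for Acadm, chr11:70015498-70015527 for Acadvl, chr19:3323195-3323224 for Cpt1a and chr7:140116487-140116516 for Echs1. The matches began 249, 87, 94 and 83 bases before the gene start in the same order. None of these 4 genes was called in the comparison of the tissues.

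The arrays were of like brightness, with a 75th percentile of the processed signal between 1557 and 1989 and no saturated spot. The share of probes with a signal well above background ran from 52.8% to 63.6%. The 3 heart arrays were alike, with a mean correlation of 0.991 between pairs over all genes tested, and the spleen arrays less so, at 0.949. Along the first principal component, which held 69.0% of the variance, the hearts lay between 76.1 and 87.0 and spleens 1, 2 and 4 at -110.4, -87.8 and -45.4. Spleen 4, which shares a later date in the titles with heart 4, thus stood apart from the other spleens on the side of the hearts. Results that rest on spleen 4 are given with and without it. The myeloid label was checked on Itgam (CD11b), Ptprc (CD45) and Csf1r. All 3 were well above background on all 6 arrays, with differences of 0.04, -0.11 and 0.70 on the log2 scale, none called. The arrays also carried RNA of other cell types, summed here as log2 levels over each marker list. The macrophage and monocyte list reached 9.35 to 9.48 in the hearts and 8.10, 8.94 and 9.13 in spleens 1, 2 and 4. The list of neutrophils and their precursors, called the neutrophil list here, reached 6.19 to 6.41 in the hearts. It reached 9.79, 10.4 and 9.12 in the spleens in the same order. The B cell list reached 1.41 to 1.61 in the hearts and 6.86, 2.59 and 2.18 in the spleens, and the T and natural killer cell list 3.02 to 3.30 against 6.75, 4.31 and 3.53. The erythroid list ranged from 3.24 to 5.48 in the hearts and from 3.35 to 7.69 in the spleens. By the test used below, 5 of 16 macrophage and monocyte genes tested were called higher in heart, 10 of 15 neutrophil genes and 1 of 7 T and natural killer cell genes were called lower, and no B cell gene of 6 and no erythroid gene of 7 was called by limma, with 4 and 1 at an unadjusted p under 0.05.

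The comparison of heart with spleen asked how the RNA of this pathway differed between the myeloid cells of the injured tissue and those of the spleen at the same time. Of the 31 members tested, 2 were called higher in heart than in spleen cells (Slc25a20 and Acsl4) and 1 lower (Crot). The other 28 were not called by limma at an adjusted p under 0.05. Over all 17772 genes tested, 8.86% were called higher and 6.50% lower, 15.4% in all, so that the members' counts did not exceed the background shares. The median difference of the 31 members was 0.09 on the log2 scale, beside 0.10 over all genes tested, and the differences ran from -0.98 to 1.26, with 17 above 0 and 14 below. The unadjusted p was under 0.05 for 6 members (19.4%), beside 32.0% of all genes tested. The 95% confidence interval lay within 1 log2 unit on either side of 0 for 14 of the 31 members (45.2%), beside 44.6% of all genes, so larger differences were not excluded for the other 17. A level or difference in sorted bulk cells cannot tell fewer cells of a type from less RNA per cell. The p-values measure only the spread between these 3 samples of each tissue.

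**Figure D1:**
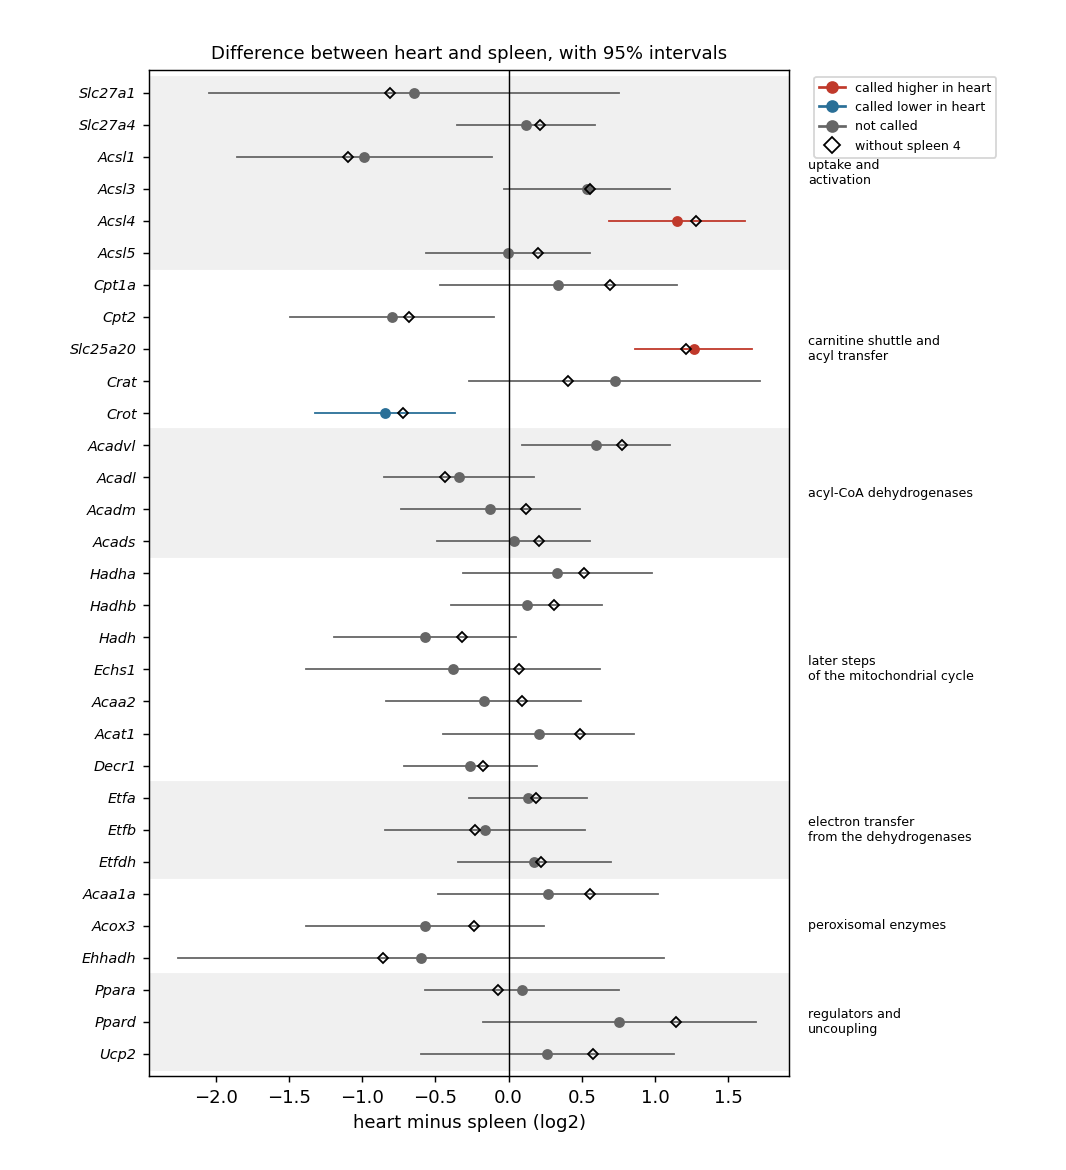
Difference in RNA level, heart minus spleen, on the log2 scale (x axis) for each of the 31 members tested (y axis), grouped by role. Dots are the differences over all 6 arrays, lines their 95% confidence intervals, and open diamonds the values without spleen 4; Slc25a20 and Acsl4 lie above 0 and Crot below.

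Leaving out any 1 heart array lowered the number of calls over all genes. Without heart 1, 2 or 4 limma called 2.55%, 2.73% and 3.05% of all genes and none of the members, while 4, 3 and 4 members had an unadjusted p under 0.05. The differences moved little, from 1.25 to 1.29 for Slc25a20, from 1.09 to 1.23 for Acsl4 and from -0.86 to -0.81 for Crot. Without spleen 4 the test called 4 members higher, adding Acadvl and Ppard, and 1 lower. The background without spleen 4 was 14.1% of genes called higher and 9.60% called lower, of 17762 tested.

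In the carnitine shuttle, the translocase was higher in heart, and neither Cpt1a nor Cpt2 was called. Slc25a20, the carnitine-acylcarnitine translocase of the inner mitochondrial membrane, had log2 levels of 0.02, -0.06 and 0.01 in hearts 1, 2 and 4 and of -1.35, -1.09 and -1.37 in spleens 1, 2 and 4. All 3 hearts lay above all 3 spleens, and the spread within each tissue was small beside the gap. The difference was 1.26 ± 0.17 (SE), or 2.40-fold, with an adjusted p of 0.00802 by limma and an interval of 0.86 to 1.66. The adjusted p ran from 0.00572 to 0.160 over the 21 alternatives run, and the gene was called in 17 of them. Its probe lies at chr9:108585399-108585458 of mm9, the build of the array's annotation. The difference was 1.21 within the earlier date, 1.38 between heart 4 and spleen 4, and 1.40 between heart 1 and spleen 4, which shared a slide.

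Cpt2, which remakes acyl-CoA inside the mitochondrion, had levels of -0.53, -0.76 and -0.31 in hearts 1, 2 and 4 and of -0.31, 0.59 and 0.50 in spleens 1, 2 and 4. Heart 4 and spleen 1 were level, and the other spleens lay above the hearts. The difference was -0.80 ± 0.29 (SE; interval -1.50 to -0.10) and was not called, with an adjusted p of 0.118 by limma. It was called only without spleen 1, at -1.08 and an adjusted p of 0.0220. A second Cpt2 probe gave -0.53. Cpt1a, the rate-limiting carnitine palmitoyltransferase of the outer membrane, had levels of 2.40, 2.36 and 2.23 in the hearts and of 1.40, 1.88 and 2.70 in spleens 1, 2 and 4. Spleen 4 lay above the hearts and the other spleens below them. The difference of 0.34 (interval -0.47 to 1.15) was not called, at an adjusted p of 0.542 by limma, and a second probe gave 0.45. Cpt1b, the muscle form of the enzyme and no member, differed by -0.03 (interval -0.81 to 0.74).

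Crot, the peroxisomal carnitine octanoyltransferase that prepares shortened chains for export, was the member called lower in heart cells. Its levels were 0.01, 0.00 and -0.10 in hearts 1, 2 and 4 and 0.51, 0.87 and 1.07 in spleens 1, 2 and 4. The hearts all lay below the spleens. The difference was -0.84 ± 0.20 (SE; interval -1.32 to -0.37), or 1.79-fold higher in spleen, with an adjusted p of 0.0371 by limma. It was -0.68 within the earlier date, -1.16 in the later pair and -1.06 in the pair that shared a slide. Without spleen 4 it was -0.72 at an adjusted p of 0.0423. The call was the least steady of the 3, made in 11 of 21 alternatives, with adjusted p-values from 0.0161 to 0.253, and it was lost without spleen 2 at 0.0782. The Crot probe lies at chr5:8966430-8966489 of mm9.

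Crat, the carnitine acetyltransferase that buffers acetyl-CoA, was dim. Its levels were -3.61, -3.34 and -3.49 in the hearts and -4.50, -3.27 and -4.85 in spleens 1, 2 and 4, the last not well above background. Spleen 2 lay with the hearts and the other spleens below them. The difference of 0.72 (interval -0.27 to 1.72) was not called, at an adjusted p of 0.281 by limma, and was called only without spleen 2, at 1.19 and an adjusted p of 0.0297.

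Among the genes of uptake and activation, 1 of 6 tested was called higher in heart and none lower, with 2 at an unadjusted p under 0.05. Acsl4, the acyl-CoA synthetase with a preference for arachidonate and other polyunsaturated chains, had levels of 2.64, 2.54 and 2.35 in hearts 1, 2 and 4 and of 1.23, 1.22 and 1.62 in spleens 1, 2 and 4. All hearts lay above all spleens, with heart 4 and spleen 4 the nearest to each other. The difference was 1.15 ± 0.19 (SE; interval 0.69 to 1.62), or 2.22-fold, with an adjusted p of 0.0157 by limma. It was called in 16 of 21 alternatives, with adjusted p-values from 0.00661 to 0.236. The difference was 1.36 within the earlier date, 0.73 in the later pair and 1.02 in the pair that shared a slide. The Acsl4 probe lies at chrX:138752591-138752650 of mm9.

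Acsl1, the synthetase that feeds oxidation in heart and fat and is induced in inflammatory myeloid cells, had levels of 1.95, 2.24 and 2.18 in the hearts and of 2.54, 3.90 and 2.88 in spleens 1, 2 and 4. The hearts lay below the spleens with no overlap, and spleen 2 was far above the rest. The difference of -0.98 ± 0.36 (SE; interval -1.86 to -0.11) was the largest among the members not called, at an adjusted p of 0.119 by limma. A second Acsl1 probe gave -1.18 and was not called either, at an adjusted p of 0.145. Slc27a1, a fatty acid transport protein with synthetase activity, had levels of -0.44, -0.67 and -0.69 in the hearts and of 1.40, -0.98 and -0.29 in spleens 1, 2 and 4. Spleen 1 alone was high, and without it the difference of -0.65 (interval -2.05 to 0.75) became 0.03. Of the others, the synthetase Acsl3 differed by 0.53 (interval -0.03 to 1.10), the transport protein Slc27a4 by 0.12 (-0.36 to 0.59) and the synthetase Acsl5 by -0.0040 (-0.57 to 0.56).

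The 4 acyl-CoA dehydrogenases, which open the cycle on chains of different lengths, had no call, with 1 unadjusted p under 0.05. Acadvl, the very long chain enzyme, came nearest, with levels of 2.61, 2.52 and 2.54 in the hearts and of 1.71, 1.85 and 2.32 in spleens 1, 2 and 4. The hearts lay above the spleens, spleen 4 being the closest to them. The difference was 0.60 ± 0.21 (SE; interval 0.09 to 1.10; adjusted p 0.108 by limma), and without spleen 4 it was 0.78 at an adjusted p of 0.0220. Acadl, the long chain enzyme, differed by -0.34 (interval -0.85 to 0.17) with the hearts below the spleens. Acadm, the medium chain enzyme, differed by -0.12 (-0.73 to 0.49), and Acads, the short chain enzyme, by 0.04 (-0.49 to 0.56).

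None of the 7 genes of the later steps was called, and none had an unadjusted p under 0.05. Their differences ran from -0.57 to 0.33 with a median of -0.17. Hadha and Hadhb, the subunits of the trifunctional protein that acts on long chains, differed by 0.33 (interval -0.31 to 0.98) and 0.12 (-0.39 to 0.64). Hadh, the dehydrogenase for shorter chains, differed by -0.57 (-1.19 to 0.05), with all hearts below all spleens. The short chain hydratase Echs1 differed by -0.38 (-1.38 to 0.62) and the thiolase Acaa2 by -0.17 (-0.84 to 0.50). The acetoacetyl-CoA thiolase Acat1 differed by 0.21 (-0.44 to 0.86) and Decr1, the dienoyl-CoA reductase for unsaturated chains, by -0.26 (-0.71 to 0.19). A second, dim Decr1 probe gave -0.63 and was not called.

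Spleen 4 was the highest spleen for all 7 of these genes, beside 43.8% of all genes tested. It lay above all hearts for 6 of the 7, beside 38.6% of all genes. Echs1 shows the range, with 2.73, 2.73 and 2.79 in the hearts and 2.33, 3.03 and 4.02 in spleens 1, 2 and 4. The hearts lay within 0.06 of each other, and the spleens spread to both sides of them. Within the earlier date 5 of the 7 genes were higher in heart, beside 59.8% of all genes. Between heart 4 and spleen 4 none of the 7 was, beside 50.7% of all genes. The 3 electron carriers went the other way, all 3 being higher in heart in that pair, with spleen 4 above all hearts for none of them.

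The electron carriers differed little. Etfa and Etfb, the subunits of electron transfer flavoprotein, differed by 0.13 (interval -0.27 to 0.54) and -0.16 (-0.84 to 0.52), and Etfdh, which hands the electrons to ubiquinone, by 0.18 (-0.34 to 0.70). All 3 intervals lay within 1 log2 unit of 0, and none had an unadjusted p under 0.05. The hearts lay above the spleens for Etfa, but by less than 0.01 between heart 4 and spleen 4. A second Etfa probe gave 0.11, with spleen 2 above the hearts.

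The 3 peroxisomal enzymes were not called, and none had an unadjusted p under 0.05. Acox3, an oxidase for branched chains, had levels of 0.68, 0.85 and 1.01 in the hearts and of 0.80, 1.36 and 2.09 in spleens 1, 2 and 4. Spleens 2 and 4 lay above the hearts and spleen 1 among them. The difference was -0.57 (interval -1.38 to 0.24), and a second probe gave -0.10. The thiolase Acaa1a differed by 0.27 (-0.48 to 1.02), a value that is uncertain because the near-identical Acaa1b can share its probe. The bifunctional enzyme Ehhadh was dim, at -4.77, -4.09 and -5.17 in the hearts, the last not well above background, and at -2.53, -5.11 and -4.61 in spleens 1, 2 and 4. Spleen 1 alone was high, and the difference of -0.60 (-2.26 to 1.06) became 0.18 without it.

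Of the regulators, none of the 3 tested was called, and none had an unadjusted p under 0.05. Ppard, the widely expressed PPAR, had levels of 1.50, 1.35 and 1.33 in the hearts and of -0.14, 0.64 and 1.41 in spleens 1, 2 and 4. Spleen 4 lay among the hearts and the other spleens well below them. The difference of 0.76 (interval -0.18 to 1.69) was not called, at an adjusted p of 0.237 by limma, and was 1.14 at an adjusted p of 0.0343 without spleen 4. Ppara differed by 0.09 (-0.57 to 0.75) on a probe with means of -0.37 in heart and -0.46 in spleen. Its other probes, of the same transcript, were at background on every array, with means of -6.87 to -7.53. Whether the brighter probe reads Ppara RNA was not tested. The uncoupling protein Ucp2 differed by 0.27 (-0.60 to 1.13). Ppargc1a, which encodes PGC-1 alpha, was well above background on spleen 1 only, at -3.96, with -6.98 to -7.69 elsewhere. Ppargc1b, its relative, was well above background on spleens 1 and 4 only, at -4.50 and -5.01. Neither was well above background on any heart array, and neither was tested.

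**Figure D2:**
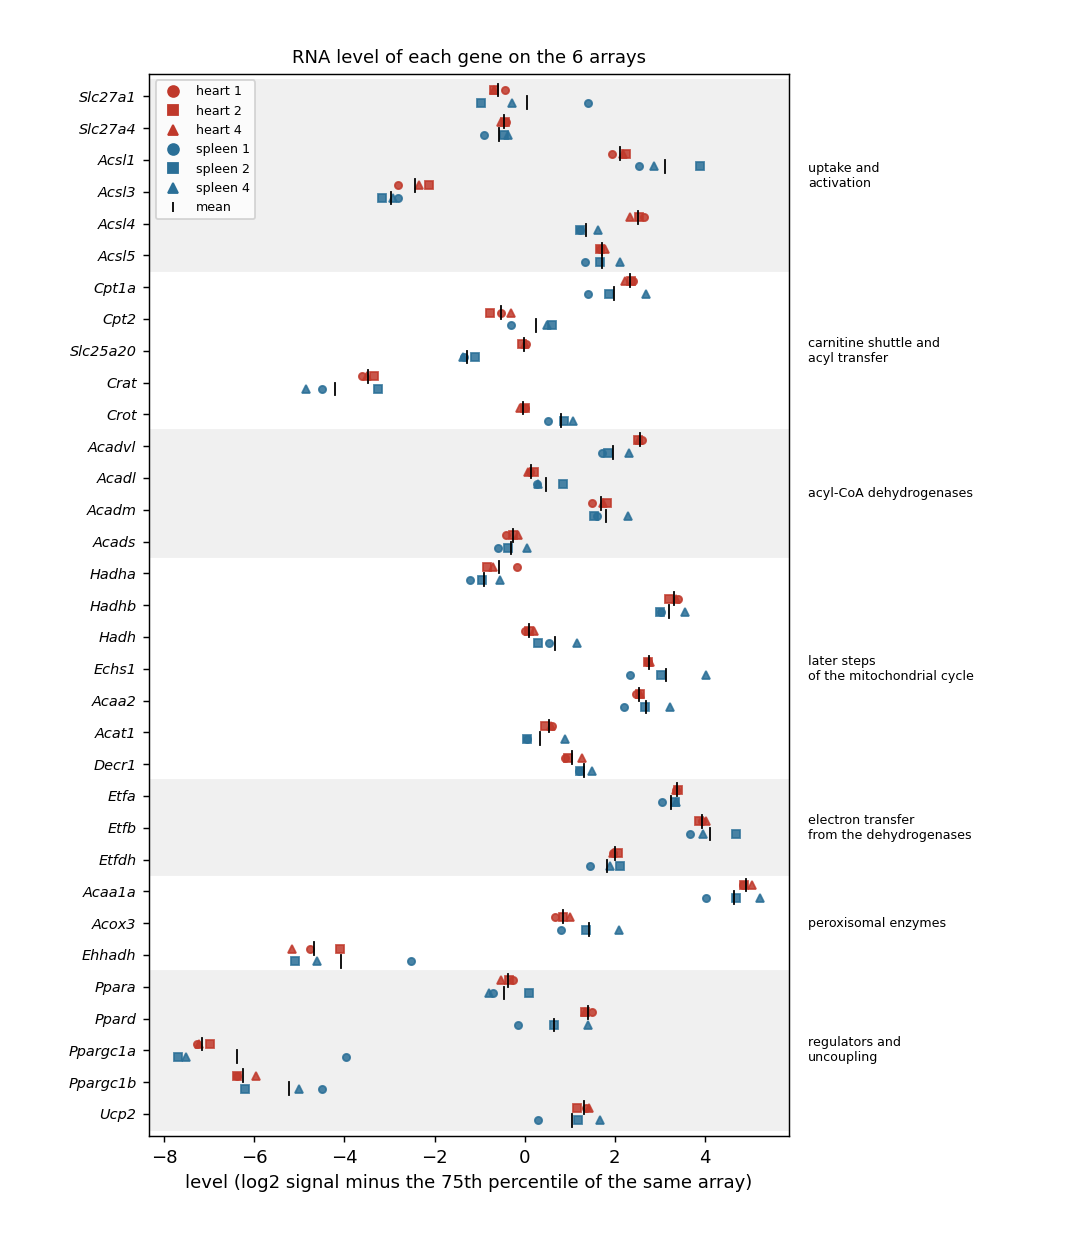
RNA level of each of the 33 members (y axis, grouped by role) on the 6 arrays, as log2 signal minus the 75th percentile of the same array (x axis). Red symbols are hearts, blue symbols spleens and black ticks the mean of each tissue; the hearts cluster while the spleens spread, and Ppargc1a and Ppargc1b are at background on the hearts.

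The members varied more among spleens than among hearts. The median SD over the 3 arrays was 0.099 in heart and 0.45 in spleen, beside 0.15 and 0.40 over all genes tested, and 29 of the 31 members (93.5%) had the larger SD in spleen, beside 83.3% of all genes. Heart and spleen did not overlap for 8 members on the probe that read each gene, though they did on a second Etfa probe. Slc25a20, Acsl4, Acadvl and Etfa had all hearts above all spleens (12.9%), against a background of 24.5% of genes, and Crot, Acadl, Hadh and Acsl1 had all hearts below (12.9%), against 16.5%.

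The order of the spleens recurred over the members. Spleen 4 was the highest spleen for 20 of 31 members (64.5%; 43.8% of all genes), and it lay above all hearts for 19 (61.3%; 38.6% of all genes). Spleen 1 was the lowest spleen for 21 (67.7%; 48.0% of all genes). Members share arrays, so these counts describe the 3 spleens and carry no test. In the same order of spleens 1, 2 and 4 the macrophage and monocyte list summed to 8.10, 8.94 and 9.13, the B cell list to 6.86, 2.59 and 2.18 and the T and natural killer cell list to 6.75, 4.31 and 3.53. The erythroid list summed to 7.69, 4.71 and 3.35 in that order, and the neutrophil list, which was highest in spleen 2, to 9.79, 10.4 and 9.12. The part of these cells in the members' levels was not tested.

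The sign of many members' differences depended on the arrays compared. Within the earlier date, 2 hearts against 2 spleens, 21 of 31 members (67.7%) were higher in heart, beside 59.8% of all genes, and the median difference was 0.16, beside 0.14. Between heart 4 and spleen 4, the later date, 9 members (29.0%) were higher in heart, beside 50.7% of all genes, and the median was -0.21, beside 0.01. Between heart 1 and spleen 4, the slide that held both tissues, 10 members (32.3%) were higher in heart, beside 53.6% of all genes, with a median of -0.17, beside 0.06. The signs of the 2 dates were the same for 17 members (54.8%), beside 67.7% of all genes, and 13 members (41.9%) were higher in heart at the earlier date and lower at the later one, beside 20.7%. Each later comparison is a single pair of arrays and has no test. Spleens 1 and 2 lay on slide 1, heart 1 and spleen 4 on slide 2, and hearts 2 and 4 on slide 3. Date, slide and spleen 4 cannot be told apart among the spleens. Tissue and slide cannot be told apart among hearts 2 and 4 and spleens 1 and 2.

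**Figure D3:**
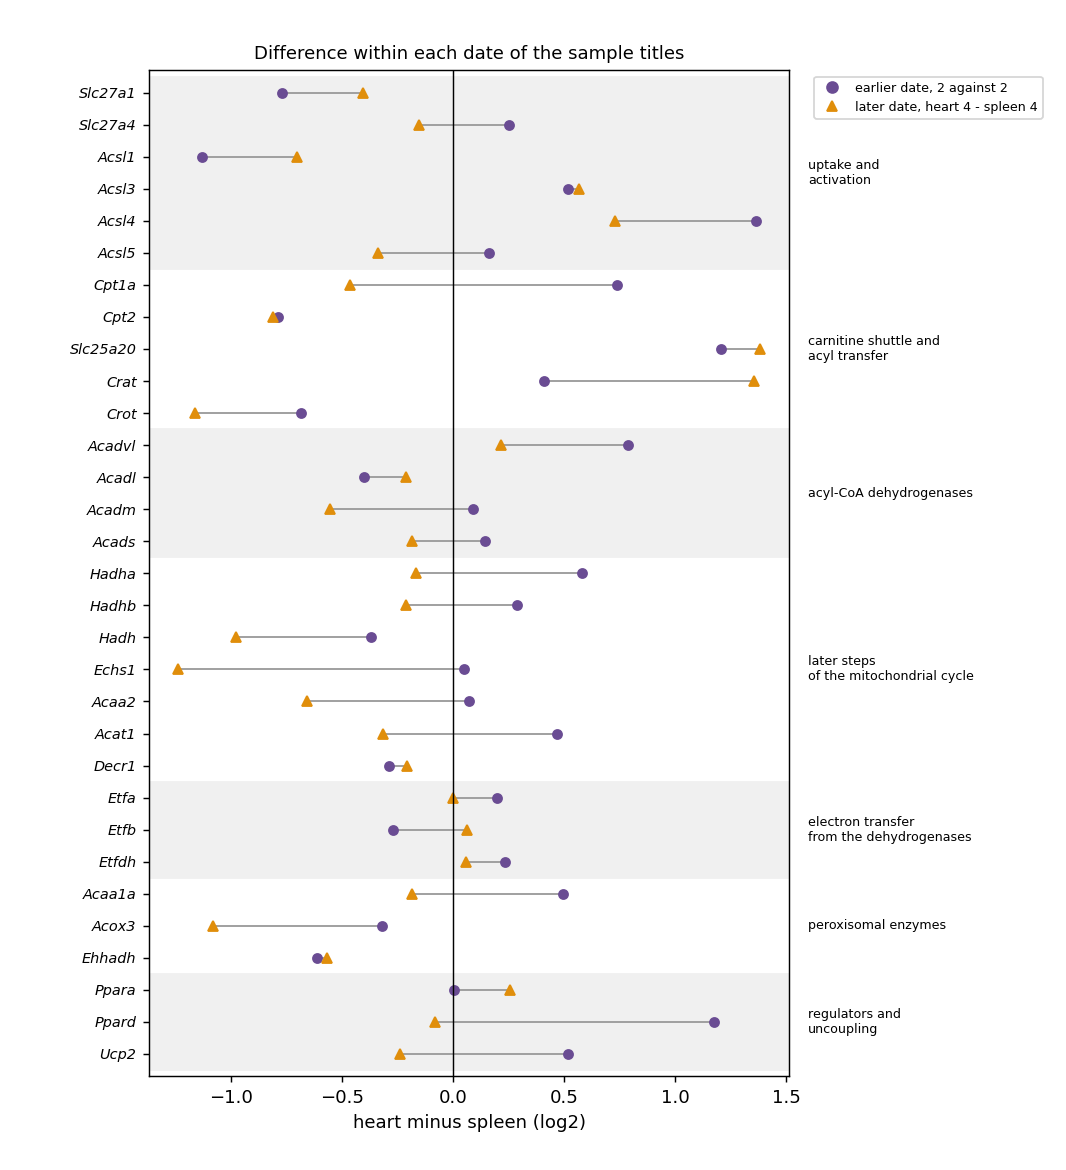
Difference in RNA level, heart minus spleen, on the log2 scale (x axis) within each date of the sample titles, for the 31 members tested (y axis, grouped by role). Circles are hearts 1 and 2 against spleens 1 and 2, triangles heart 4 minus spleen 4; the circles of the later steps are mostly above 0 and their triangles all below, while both symbols of Slc25a20 and Acsl4 lie above 0 and both of Crot below.

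Slc25a20, Acsl4 and Crot kept their sign at both dates and within the shared slide. This follows from the lack of overlap between their hearts and spleens and adds no support to the calls. Acadvl, Etfa, Acadl, Hadh and Acsl1, also without overlap but not called, kept theirs too, unlike many other members. Without spleen 4 the members' median rose from 0.09 to 0.20. Quantile scaling between arrays instead of the 75th percentile moved it to -0.15, beside 0.04 over all genes, so the sign of the list's median followed the scaling. Under quantile scaling the differences of Slc25a20, Acsl4 and Crot were 1.30, 0.98 and -0.88. Centring on the median shifted the whole scale by 0.12, with a median of 0.20 for the members.

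Other genes of the pathway were taken from a list chosen with earlier results of these data known. Of 47 listed, 40 were tested, and by limma at an adjusted p under 0.05 none was called higher in heart and 4 were called lower. All 4 calls were lost with median scaling, in the earlier date only and with slide as a fixed block. The unadjusted p was under 0.05 for 6 (15.0%), and the median difference was -0.08. Among all genes tested the shares were 8.86% called higher, 6.50% called lower and 32.0% at an unadjusted p under 0.05. Mlycd, malonyl-CoA decarboxylase, which removes the inhibitor of Cpt1, had levels of -0.35, -0.24 and -0.07 in the hearts and of 0.64, 0.82 and 1.02 in spleens 1, 2 and 4. The hearts lay below the spleens, and the difference was -1.04 ± 0.18 (SE; adjusted p 0.0176 by limma). Acad11, a dehydrogenase for hydroxylated chains, had levels of -0.57, -0.49 and -0.50 against 0.17, 0.81 and 0.54, a difference of -1.03 ± 0.21 (adjusted p 0.0255 by limma). Hacl1, the peroxisomal lyase of alpha-oxidation, had levels of -1.07, -0.92 and -0.89 against -0.28, 0.01 and 0.12, a difference of -0.91 ± 0.18 (adjusted p 0.0243 by limma). Each of these had all hearts below all spleens. Hibch, a hydrolase of valine breakdown named after its values were seen, differed by -0.81 (adjusted p 0.0490 by limma), and without spleen 4 it was no longer called, at -0.70 and an adjusted p of 0.0652. The brightest gene not called was Scp2, a peroxisomal thiolase and lipid carrier, at -0.40 (interval -1.11 to 0.31).

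The regulators and targets of the pathway, from a list chosen in the same way, held larger differences than any member. Of 37 listed, 33 were tested, 6 were called higher in heart and 1 lower, beside 8.86% and 6.50% of all genes. The unadjusted p by limma was under 0.05 for 14 (42.4%), beside 32.0% of all genes. The median was 0.11, and -0.05 under quantile scaling. Fabp3, the heart-type fatty acid binding protein, had levels of -0.54, -1.19 and -1.16 in hearts 1, 2 and 4 and of -5.54, -5.38 and -3.09 in spleens 1, 2 and 4, with 2 of the 3 spleens well above background. The difference was 3.70 ± 0.66 (SE; adjusted p 0.0185 by limma). Plin2, which coats lipid droplets, had levels of 5.41, 4.92 and 4.91 against 0.99, 2.17 and 2.75, a difference of 3.11 ± 0.45 (adjusted p 0.0109 by limma). Fabp5, the epidermal-type binding protein found in macrophages, had levels of 5.67, 5.42 and 5.56 against 2.25, 2.80 and 3.32, a difference of 2.76 ± 0.29 (adjusted p 0.00410 by limma). For all 3 genes the hearts lay above the spleens and spleen 4 was the nearest to them.

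The other calls of this list are named after their values were seen. Fabp4, the adipocyte-type binding protein also made by macrophages, was higher in heart by 2.47 (adjusted p 0.0272 by limma). The liver X receptor Nr1h3 was higher by 2.09 (0.0154) and the nuclear receptor Pparg by 1.50 (0.0306). Tfam, the transcription factor of mitochondrial DNA, was lower, at -1.05 (0.0280). The fatty acid translocase Cd36 differed by 2.74 (interval 0.95 to 4.53) and was not called, at an adjusted p of 0.0559 by limma, the levels being 0.20, 0.31 and 0.14 in the hearts and -0.88, -4.06 and -2.62 in the spleens. The brightest gene not called was Dgat2, an enzyme of triglyceride synthesis, at -0.08 (interval -1.13 to 0.97). Esrra, a receptor that acts with PGC-1, differed by 0.11. Pdk4, Acsl6 and Prkaa2 were not well above background on any array.

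**Figure D4:**
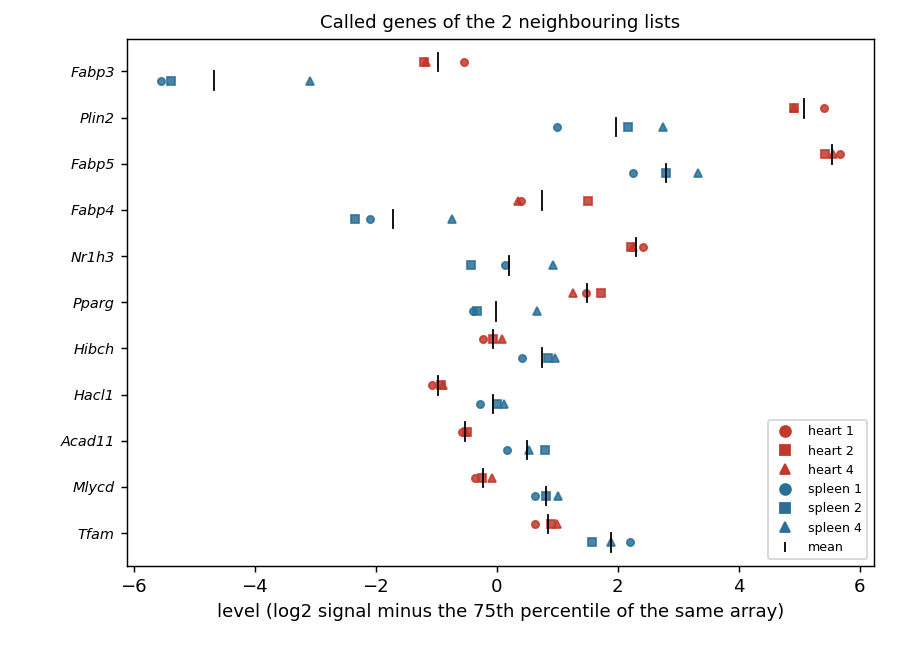
RNA level of the 11 genes called in the lists of other pathway genes and of regulators and targets (y axis) on the 6 arrays, as log2 signal minus the 75th percentile of the same array (x axis). Red symbols are hearts, blue symbols spleens and black ticks the mean of each tissue; the hearts lie to the right of the spleens for the top 6 genes and to their left for the bottom 5.

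Markers of other cells of the heart were read beside these results. Of 24 cardiomyocyte markers 13 were tested and 5 were called higher in heart, and the list summed to 0.999 to 1.40 in the hearts and 0.19 to 0.81 in the spleens. Among its defining genes, Actc1 was well above background on the 3 heart arrays and on no spleen array, Tnnt2 on 1 heart array and Ttn on none. Myh6 differed by 1.51 (adjusted p 0.0711 by limma) and Tnni3 by -0.12. The fibroblast list summed to 2.98 to 3.20 in the hearts and -2.83 to -2.15 in the spleens. All 6 of its tested genes of 12 listed were called higher. Its brightest gene in the hearts was Pdpn, at 2.76, 1.69 and 2.59 in hearts 1, 2 and 4. Pdpn made the largest single part of the sum on each heart array, so the sum is not the level of the defining genes. The defining genes Col1a1, Col3a1 and Dcn differed by 3.92, 5.60 and 4.27, with heart means of -0.70, -0.72 and -1.67. Pdgfra, Dpt, Tcf21 and Ddr2 were not well above background on any array. The endothelial list summed to 1.63 to 1.97 in the hearts and 1.34 to 1.55 in the spleens, with 2 of 7 tested called higher. Of the 7, 5 had a difference above 0 and 2 below. Of its defining genes, Cdh5 differed by 2.50 and was called, and Pecam1 by -0.62 and was not. Vwf differed by -0.61. Kdr was the brightest in the hearts, and Tek, Tie1 and Emcn were not well above background on any array. Adipoq, the defining adipocyte gene, had no array with a signal well above background. The part of these cells in the differences of Slc25a20, Acsl4 and the fatty acid binding proteins was not tested.

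Mitochondrial genes outside the pathway gave a further reference. All 25 listed were tested. By limma 2 were called higher (Tomm20 by 0.87 and Timm23 by 0.71, both subunits of protein import) and none lower. Over all genes tested 8.86% were called higher and 6.50% lower, so these calls did not exceed the background shares. The unadjusted p by limma was under 0.05 for 7 of the 25, a share below the 32.0% of all genes. Of the 25, 24 had a difference above 0, beside 10387 of all 17772 genes tested. The median of the 25 was 0.30, beside 0.09 for the members and 0.10 for all genes. This lean followed the scaling: under quantile scaling 13 of the 25 lay above 0 and 12 below, with a median of 0.03. Tomm20 and Timm23 then differed by 0.57 and 0.33, and neither was called by limma. The part of mitochondrial content in the members' levels was not tested.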

How the data were processed

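Per the labels, total RNA of sorted cells was amplified once and hybridised with 1 dye to Agilent mouse arrays. The deposited scanner files hold spot intensity from the authors' scans, and the submitters' processing notes name Agilent Feature Extraction 10.7.3.1 for it. A deposited table holds log2 values whose scaling is not given in the sources used here. Array-to-array differences in it were those of quantile-scaled intensities, and its baseline per probe stays unknown (column medians were 0).

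From the processed intensity, log2 was taken and each array's 75th percentile subtracted. Control spots and outlier spots were left out, and spots of a probe were averaged. A gene was read by its probe with the highest mean. The filter kept 17776 genes for which either tissue was well above background on each of its 3 arrays, and 17772 had values to test. Tests used limma 3.58.1 in R 4.3.3 (lmFit, eBayes, two-sided), with Benjamini-Hochberg adjustment over all genes tested and a threshold of 0.05. Fold changes are differences of log2 means, and the number of arrays limits their precision. The script was tested on simulated data. Promoters were searched in Python 3.11.15.

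The members and lists were chosen with earlier results of these data known. Values on every array are given for the called members and the 5 largest differences among those not called, and for others where the text turns on them; from each further list, the 3 largest called differences and the brightest gene not called are named. Alternatives covered scaling, background, filter, probe choice, the deposited table, blocks for replicate number, date and slide, variance models and leaving out each array. Positions of probes within exons or UTRs were not analysed here.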

Additional observations from a re-analysis of the deposited data

How the results depend on the processing

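Among the members, 591 of the values under alternatives kept their direction and their side of the threshold, 35 turned sign, 19 lost a call and 4 gained one. The count of members called higher, 2 in the main setting, was 1 with the replicate block and 0 with slide as a fixed block, and ranged from 0 to 4 when 1 array was left out. The count called lower, 1, was 0 with median scaling, with no filter on dim probes, with the replicate block, with date as a block, in the earlier date only and with the slide block, and ranged from 0 to 2 when 1 array was left out. The share of all genes called moved with these counts, from 15.4% in the main setting to 8.74% with the replicate block and 0.287% with the slide block, and ran from 2.55% to 23.7% when 1 array was left out. By limma the unadjusted p was under 0.05 for 6 members with the slide block, the same number as in the main setting, and for 5 with the replicate block. The numbers were not taken as pairs, since the labels do not say whether same-numbered arrays came from 1 animal. The deviations of same-numbered arrays correlated at -0.084, 0.071 and 0.0048 for numbers 1, 2 and 4. With 3 arrays of each tissue, these values cannot decide whether the arrays were paired. Other pathway genes called, 4, became 0 with median scaling, 1 with no filter, 1 with the replicate block, 0 in the earlier date only and 0 with the slide block, with a range of 0 to 6 when 1 array was left out. Regulators and targets called, 7, became 4 with no filter, 4 with the replicate block and 0 with the slide block (range 1 to 9 without 1 array). Marker and other mitochondrial genes called, 31, became 19 with no filter and 4 with the slide block (range 13 to 45).

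The differences that turned sign were all of members not called. With slide as a fixed block, which rests on 1 pair of arrays, Cpt1a was -0.30, Acads -0.45, Hadhb -0.17, Acaa1a -0.37, Acat1 -0.31, Slc27a4 -0.044 and Ucp2 -0.32. In the earlier date only, Acadm was 0.091, Echs1 0.049, Acaa2 0.073 and Acsl5 0.16. With quantile scaling Hadhb was -0.16, Acaa1a -0.13 and Etfa -0.16, with the deposited table -0.15, -0.13 and -0.15, and with median scaling Acsl5 was 0.11. When 1 array was left out, the difference ranged from -0.27 to 0.12 for Acadm, -0.11 to 0.21 for Acads, -0.78 to 0.068 for Echs1, -0.037 to 0.56 for Acaa1a, -0.42 to 0.091 for Acaa2, -0.19 to 0.20 for Acsl5, -1.11 to 0.18 for Ehhadh, -0.38 to 0.13 for Etfb, -0.0088 to 0.32 for Etfdh, -1.16 to 0.031 for Slc27a1, -0.039 to 0.22 for Slc27a4, -0.070 to 0.37 for Ppara and -0.11 to 0.58 for Ucp2. The slide block, the replicate block and the earlier date have fewer arrays or degrees of freedom by construction, and the cause of the other changes was not tested. Signal over background limits Crat, Ehhadh, Ppargc1a and Ppargc1b.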
